A study of Mus musculus with 29 samples.

Results

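The genes described here encode the proteins of the cytosolic ribosome. They were chosen by name: rows of the count table whose identifier maps to a protein-coding mouse symbol that starts with Rpl or Rps and a digit, or with Rplp and a digit, together with Rpsa, leaving out the Rps6k kinases and symbols that contain -ps. The rule found 86 of the 54532 rows, and 83 of them had enough counts to be tested. Of the 86, 77 encode standard proteins of the large (60S) or small (40S) subunit and are called subunit genes below, 7 are paralogs of such genes (Rpl3l, Rpl10l, Rpl22l1, Rpl36al, Rpl39l, Rps27l and Rps27rt), and Rpl7l1 and Rps19bp1 carry the prefix but encode proteins that work in ribosome assembly or bind a ribosomal protein. Subunit genes under other names, such as Fau and Rack1, fall outside the rule and were read separately.

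The libraries come from livers of male mice. In the K556R groups, hepatocytes carry a conditional knock-in of Prox1, a liver transcription factor, that is deficient in SUMO, a small protein attached to lysines. The allele was switched on by Cre at 8 weeks of age, and what drives the Cre is not named in the labels. The WT groups are labelled wild type and controls, and whether they received Cre is not stated. All mice then ate a diet with 45% fat and 20% fructose for 18 weeks, and livers were taken at ZT 15 to 17 after fasting or refeeding. There are 8 fasted WT libraries (4 in batch 1 and 4 in batch 2), 7 fasted K556R (4 and 3), 6 refed WT (3 and 3) and 8 refed K556R (4 and 4).

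A ribosome is built from ribosomal RNA and a matched set of ribosomal proteins, and most of its protein genes are expressed at high levels that are similar to each other. Their mRNAs start with a run of pyrimidines, the 5′ terminal oligopyrimidine (TOP) tract. Through this tract the nutrient-sensing kinase mTORC1 controls chiefly how strongly they are translated, with the TOP-binding protein Larp1 as one mediator. In liver, feeding is known to raise mTORC1 activity and ribosome production. Ribosomal protein genes have also left many processed pseudogenes in the mouse genome, intronless copies made from their mRNA, and short reads from a gene and such a copy can be hard to tell apart.

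The libraries hold 14385218 to 27278251 gene counts, with medians of 22106062 in batch 1 and 17331641 in batch 2. The tissue matched its label: 11 hepatocyte markers, among them Alb and Apoa1, summed to 67120 to 108129 CPM (counts scaled to a common library size) and none was at 0. One fasted WT library (batch 1, replicate 3) stood apart with 222 CPM on 17 lymphocyte markers, against 12.5 to 38.7 in all the others. One refed K556R library (batch 1, replicate 4) had the lowest sums of all 29 on the 15 stellate cell markers (361 CPM), the 11 endothelial markers (219 CPM) and the 7 adipocyte markers (28.6 CPM), and the highest on 11 pancreas markers (32.5 CPM, with Cpb1, Amy2a5, Try4 and Clps at 0 in all libraries). The counts of calls and the shares below are also given without these libraries where leaving them out moves them. The labels do not say whether each library is a different animal; p-values here describe library-to-library spread, which may be technical.

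The sequences of 2 sets of genes carry the results below. The first is a stretch of the coding sequence, bases 61 to 120 counted from the start codon, of Rps27, a small-subunit protein gene, and of its relatives Rps27rt and Rps27l, shown because it tells which of the 3 can be separated by reads. Sequences are from GENCODE M21 transcripts on GRCm38. Capitals mark bases that differ from Rps27.
Rps27: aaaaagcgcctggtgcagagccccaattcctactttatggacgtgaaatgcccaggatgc
Rps27rt: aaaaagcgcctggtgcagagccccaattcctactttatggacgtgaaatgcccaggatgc
Rps27l: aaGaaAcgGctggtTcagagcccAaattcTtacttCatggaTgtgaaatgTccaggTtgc
Rps27 lies at chr3:90212522-90213651 on the minus strand, Rps27rt at chr9:114982366-114982739 on the minus strand and Rps27l at chr9:66946086-66949516 on the plus strand. Over the whole coding sequence of 255 bases, Rps27rt was identical to Rps27 (255 of 255 bases), and Rps27l matched at 77.3% of 256 aligned positions, with 6 gap positions among them. Reads from the coding part of Rps27 and Rps27rt therefore cannot be told apart by sequence, while Rps27l can.

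The second set is the start region of 8 genes, 35 bases before to 20 bases from the annotated start, from the RefSeq promoter table (GRCm38). They are 4 subunit genes that passed the refeeding test (Rpl7a, Rpl14, Rps24 and Rps7), Rpl12, which passed it in K556R livers, Rps6, the protein that mTORC1 signalling phosphorylates through S6 kinase, and the non-subunit genes Rpl7l1 and Rps19bp1. Capitals mark a pyrimidine start, a C followed by at least 4 pyrimidines that begins within 5 bases of the annotated start.
Rpl7a chr2:26910772-26910826 (+): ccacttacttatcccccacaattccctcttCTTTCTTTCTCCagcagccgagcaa
Rpl14 chr9:120571482-120571536 (+): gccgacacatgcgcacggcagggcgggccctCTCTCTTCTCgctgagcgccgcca
Rps24 chr14:24490643-24490697 (+): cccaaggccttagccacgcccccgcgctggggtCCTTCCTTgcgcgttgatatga
Rps7 chr12:28635934-28635988 (-): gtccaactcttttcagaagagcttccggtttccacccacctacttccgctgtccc
Rpl12 chr2:32961677-32961731 (+): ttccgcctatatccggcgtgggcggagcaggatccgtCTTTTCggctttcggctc
Rps6 chr4:86857348-86857402 (-): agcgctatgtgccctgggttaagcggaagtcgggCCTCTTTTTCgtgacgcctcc
Rpl7l1 chr17:46782637-46782691 (-): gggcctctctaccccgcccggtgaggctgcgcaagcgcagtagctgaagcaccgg
Rps19bp1 chr15:80264287-80264341 (-): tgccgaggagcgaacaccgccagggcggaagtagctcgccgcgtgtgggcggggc
The marked runs are counted from the first such C in the window. They were 12 bases long in Rpl7a, 10 in Rpl14 and Rps6, 8 in Rps24 and 6 in Rpl12. In Rpl7a, Rpl14, Rps24 and Rpl12 a pyrimidine also stands directly before the marked run, so the whole tract is longer there. No such start was found in this window for Rps7, Rpl7l1 or Rps19bp1. Of the 86 genes, 66 were matched in this resource, 57 of them subunit genes with 67 start regions. A pyrimidine start was found in 43.3% of those 67, against 18.3% of all 32851 start regions. Over the whole table window, 250 bases before to 50 after the start and on both strands, the letters CCGGAAG, the core of ETS factor sites, stood in 37.3% of the subunit gene regions and 8.9% of all. The YY1 core AAGATGGC stood in 10.4% and 2.7%, and TATAAA in 9.0% and 13.6%.

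Most subunit genes had similar levels once length was taken into account. Per kilobase of coding sequence, the median over the 77 subunit genes was 322 CPM per kb in batch 1, and the 10th to 90th percentiles ran from 217 to 452. In batch 2 the median was 316 CPM per kb, with 166 to 441. The medians for the large and small subunit were 321 and 329 CPM per kb in batch 1 and 304 and 329 in batch 2. Coding length leaves out untranslated sequence, which raises the value of very short genes: Rpl41, whose product is a very small peptide of the large subunit with 78 coding bases, stood highest at 2749 CPM per kb in batch 1. Rpl13a, Rps10 and Rpl24 stood far below the median in both batches, at 13.4, 4.27 and 1.56 CPM per kb in batch 1. Each overlaps another annotated gene, whose transcripts hold 57.4% (Gm45713, for Rpl13a), 55.9% (RPS10-NUDT3, for Rps10) and 69.4% (Gm28037, for Rpl24) of its 50-base stretches. The rows of those 3 overlapping genes had 0 counts in all libraries. The counts of the member rows were low (4 to 30 per library for Rpl24), and whether the overlap lowered them was not tested. Overlap was not particular to these genes. Rpl35 has 59.0% of its 50-base stretches in an overlapping gene and stood at 174 CPM per kb in batch 1. Rpl5 has 45.3% and stood at 208, and the paralog Rpl36al has 59.5% and stood at 2.50.

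Per kilobase of coding sequence, of the paralogs compared here with a relative, Rps27l stood above it and Rpl22l1, Rpl39l and Rpl3l below. Rps27l, a p53-responsive relative of Rps27, stood at 641 CPM per kb in batch 1 and Rps27 at 444. Both have 255 coding bases, but the transcripts used here are 499 bases long for Rps27l and 345 for Rps27. Coding length leaves this out and raises Rps27l against Rps27, so a higher transcript level of Rps27l cannot be read from these values. Of the 50-base stretches of Rps27, 98.65% also occur in genes at other loci, against 22.44% for Rps27l. How reads with several matches were counted is unknown here, so the levels of these rows may not be comparable. Rpl22l1 stood at 36.5 CPM per kb and Rpl22, an RNA-binding protein of the large subunit, at 256. Rpl39l, known from testis, had 14 counts over all 29 libraries, and Rpl39, a protein at the exit of the nascent chain tunnel, stood at 465.5 CPM per kb. Rpl3l, known from muscle, had 80 counts in all and stood at 0.103 CPM per kb, against 189 for Rpl3, a core protein near the peptidyl transferase centre. Rpl10l had 0 counts, which allows up to 0.00506 CPM over all libraries. Rpl3l, Rpl10l and Rpl39l had too few counts to be tested.

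After refeeding ribosomal protein genes stood slightly higher in most cases, and their summed share separated fasted from refed libraries in batch 2 but not in batch 1. Their summed share of all gene counts ran from 1.10% to 1.49% over the 29 libraries, with a median of 1.24%. In batch 2 the 7 fasted libraries had 1.10% to 1.22% and the 7 refed libraries 1.23% to 1.39%, so every refed library lay above every fasted one. In batch 1 the 8 fasted libraries had 1.11% to 1.41% and the 7 refed ones 1.17% to 1.49%, and the groups overlapped over nearly their whole range. The median share of refed libraries exceeded that of fasted ones by 0.154 percentage points in batch 2 and by 0.0053 in batch 1. Leaving out 1 library at a time gave differences of 0.132 to 0.180 in batch 2. In batch 1 it gave -0.0228 to 0.0334, so no direction can be read there: the value was -0.021 without refed K556R replicate 4 and 0.0334 without fasted WT replicate 3, the libraries that stood apart, and each of the others but refed WT replicate 3 moved it about as far. In bulk tissue a difference of this kind can come from RNA per cell or from the mix of cells, and these cannot be told apart.

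**Figure D1:**
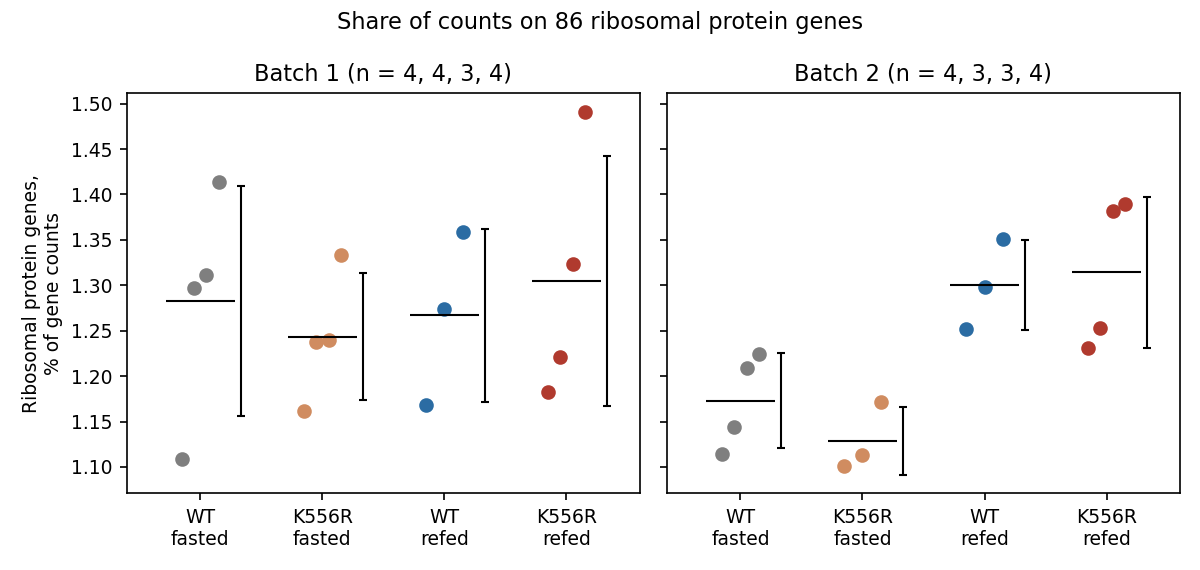
Share of gene counts on the 86 ribosomal protein genes (y axis, percent) in each library, by group and batch; points are libraries, horizontal lines means and error bars 1 SD. In batch 2 the refed libraries (1.23% to 1.39%) all lie above the fasted ones (1.10% to 1.22%), while in batch 1 fasted and refed libraries overlap.

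Gene by gene, 80 of the 83 tested genes had a positive refeeding difference in the mean of both genotypes, with a median log2 fold change of 0.098 (1.07-fold), and the median over all 15603 genes tested was 0.006. In all, 11 passed the test as higher (adjusted p below 0.05, edgeR quasi-likelihood with Benjamini-Hochberg adjustment over all genes tested) and 0 as lower. Of all genes, 12.9% were called higher and 12.8% lower, and 11 of 83 is close to that share. The 11 were the 2 non-subunit genes and 9 subunit genes, among them Rpl7a, Rpl14, Rpl21, Rpl11, Rpl27 and Rpl8 of the large subunit, and Rps7 and Rps24 of the small one. Of these, 6 (Rpl7l1, Rps19bp1, Rpl7a, Rps7, Rpl14 and Rpl21) stayed called in all 29 fits that left out 1 library, and all 11 were called by DESeq2 as well. The number called was 4 without the low-count filter and 5 without a batch term. The spread between libraries of 1 group and batch was as large as this difference: the mean log2 CPM over the 77 subunit genes varied with an SD of 0.108 within groups and batches.

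The count of calls rested on single libraries. It was 6 without refed K556R batch 1 replicate 4 or without refed WT batch 2 replicate 2, and 7 without refed WT batch 1 replicate 3 or without fasted K556R batch 2 replicate 3. It was 17 without refed K556R batch 2 replicate 1, 19 without refed K556R batch 1 replicate 1, 21 without refed WT batch 1 replicate 1, and 22 without fasted WT batch 1 replicate 3, the library high in lymphocyte markers. In each of these fits the median log2 fold change stayed between 0.074 and 0.124.

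The 2 genes that moved most clearly are not subunit genes. Rpl7l1, which works in assembly of the large subunit, stood in batch 1 at 59.2, 59.2, 59.5 and 59.5 CPM in fasted WT livers, at 53.7, 56.5, 59.95 and 60.6 in fasted K556R, at 68.0, 68.5 and 72.4 in refed WT and at 70.6, 74.0, 74.6 and 77.7 in refed K556R. All refed values of batch 1 lay above all fasted ones. In batch 2 it stood at 46.1 to 58.2 CPM in fasted and 57.5 to 74.0 in refed livers, with 1 refed WT library inside the fasted range. The log2 fold change was 0.31 (SE 0.039, adjusted p = 6.03e-07), and 0.31 and 0.30 in batches 1 and 2 alone. Rps19bp1, which binds Rps19 and the deacetylase Sirt1, stood at 11.5 ± 1.64 CPM (SD, n = 8) in fasted WT, 11.0 ± 1.19 (n = 7) in fasted K556R, 14.1 ± 1.87 (n = 6) in refed WT and 13.9 ± 1.84 (n = 8) in refed K556R livers. Its log2 fold change was 0.31 (SE 0.069, adjusted p = 0.00115), 0.30 in batch 1 and 0.33 in batch 2. The refeeding difference in batch 2 minus that in batch 1 was 0.01 for Rpl7l1 (SE 0.078) and 0.06 for Rps19bp1 (SE 0.139), and neither gene has a pyrimidine start in the sequences above.

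The called subunit genes moved less. Rps7, a small-subunit protein, stood in batch 2 at 120, 135, 139 and 140 CPM in fasted WT, at 122, 132 and 136 in fasted K556R, at 141, 148 and 167 in refed WT and at 136, 137, 151 and 169 in refed K556R livers. Only the 2 lowest refed K556R libraries fell inside the fasted range. Its log2 fold change was 0.14 (SE 0.045, adjusted p = 0.0208), 0.11 in batch 1 and 0.18 in batch 2. Rpl14, which lies on the surface of the large subunit, changed by 0.13 (SE 0.042, adjusted p = 0.0218), 0.09 in batch 1 and 0.18 in batch 2. Rpl7a changed by 0.17 (SE 0.050, adjusted p = 0.0146), 0.08 in batch 1 and 0.26 in batch 2. Rpl21 changed by 0.24 (SE 0.077, adjusted p = 0.0221), 0.09 in batch 1 and 0.39 in batch 2. For Rpl7a and Rpl21 the level itself differed several-fold between the batches, as described below.

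Of the 5S particle, which carries 5S ribosomal RNA into the large subunit and binds the p53 regulator Mdm2, Rpl11 was called and Rpl5 was not. Rpl11 changed by 0.15 (SE 0.051, adjusted p = 0.0345), 0.04 in batch 1 and 0.26 in batch 2. In batch 2 its refed values (209, 211 and 240 CPM in WT and 192, 198, 226 and 236 in K556R) overlapped the fasted ones (177, 185, 189 and 198 in WT and 165, 172 and 176 in K556R) only through its 2 lowest K556R libraries. Rpl5 differed by 0.05 (SE 0.046, adjusted p = 0.442). Among the 3 stalk proteins, which recruit elongation factors, 0 were called and Rplp0 differed by 0.06 (SE 0.049, adjusted p = 0.440). Of the 7 proteins at the mRNA channel of the small subunit, all 7 had positive differences (0.086 to 0.120) and 0 were called, among them Rpsa, also known as the laminin receptor, at 0.10 (SE 0.055, adjusted p = 0.192). At the exit of the nascent chain tunnel 5 of 6 were positive, Rpl39 differed by 0.06 (SE 0.049, adjusted p = 0.411) and Rpl22 by -0.04 (SE 0.058, adjusted p = 0.705). Rps6 differed by 0.09 (SE 0.046, adjusted p = 0.152) and Rpl3 by 0.12 (SE 0.053, adjusted p = 0.0953). Rps27a, fused to ubiquitin at its start, differed by 0.00 and had an adjusted p of 0.994.

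Fitted in each batch alone, the median refeeding difference was 0.039 in batch 1 with 3 of 83 genes called higher, and 0.173 in batch 2 with 30 called higher. Of all genes tested in those fits, 9.17% were called higher in batch 1 and 7.73% in batch 2. Positive differences were found for 61 genes in batch 1 and 80 in batch 2, and 76 of 83 were larger in batch 2. A batch-by-feeding term, added after the data were seen, called 0 of the 83, where 2.55% of all genes were called in either direction. Of the 83, 17 had an unadjusted p below 0.05, and the smallest adjusted p was 0.0674 (Rps12). No shares of all genes are given here for the counts of larger differences and of unadjusted p, and these genes vary together between libraries. Library by library the separation was weak: in batch 2 every refed library lay above every fasted one for 2 of 83 genes, Rpl38 and Rps19bp1, and for 1.87% of all genes. In batch 1 this held for Rpl7l1 alone, and for 2.46% of all genes.

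**Figure D2:**
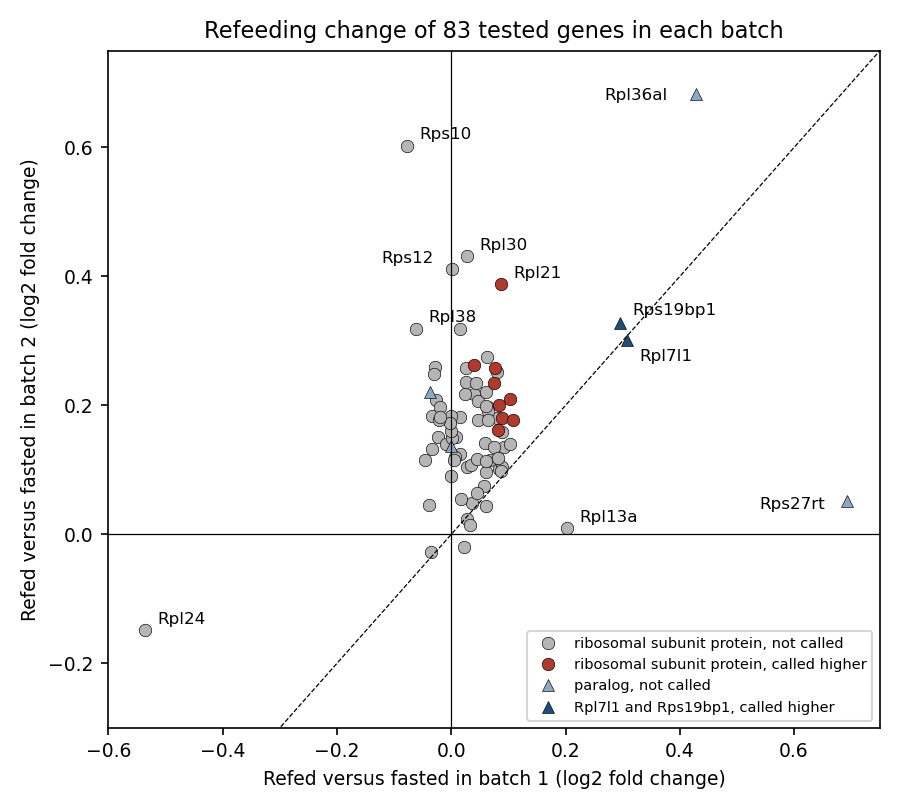
Refeeding log2 fold change of each of the 83 tested genes fitted in batch 1 alone (x axis) and batch 2 alone (y axis); circles are subunit genes (red where called over both batches, grey otherwise), triangles paralogs (light blue) and the called Rpl7l1 and Rps19bp1 (dark blue), and the dashed line marks equality. Most circles lie above the line, while Rpl7l1 (0.31 and 0.30) and Rps19bp1 (0.30 and 0.33) lie near it.

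Other lists moved with feeding differently in the batches too. The 18 macrophage markers, none of them at 0, had a median refeeding difference of -0.40 in batch 1 and 0.09 in batch 2. They summed to 481 to 1205 CPM in fasted and 505 to 765 in refed libraries of batch 1, and to 338 to 1056 and 384 to 828 in batch 2. The 16 proliferation genes had medians of -0.15 and 0.40. The part of these in the ribosomal protein result was not tested.

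Within each genotype the same direction held with few calls. In WT livers 75 of 83 genes were positive (median 0.071) and 2 were called higher, where 5.25% of all genes were: Rpl7l1 (0.29, SE 0.056, adjusted p = 0.000691) and Rpl21 (0.36, SE 0.110, adjusted p = 0.0296). Without fasted WT batch 1 replicate 3 the number called was 4, and Rpl21 missed the threshold (adjusted p = 0.0554) when the counts of its pseudogene-named rows were added. In K556R livers 80 of 83 were positive (median 0.124) and 4 were called higher, where 6.97% of all genes were: Rpl7l1 (0.32, SE 0.054, adjusted p = 9.48e-05), Rpl30 (0.43, SE 0.122, adjusted p = 0.0130), Rps19bp1 (0.32, SE 0.096, adjusted p = 0.0199) and Rpl12 (0.22, SE 0.073, adjusted p = 0.0355). Without refed K556R batch 1 replicate 1 the number was 8. With the counts of its pseudogene-named rows added, Rpl30 changed by 0.325 in K556R livers (adjusted p = 0.0181 in the same edgeR test).

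The difference between the genotypes' refeeding responses was itself tested, and 0 of 83 ribosomal protein genes passed, as did 0% of all genes. Its median over the 83 was 0.031. The smallest unadjusted p belonged to Rpl30, a large-subunit protein that can regulate its own splicing. In batch 2 Rpl30 stood at 55.3, 67.3, 69.9 and 104 CPM in fasted WT, 62.5, 82.1 and 83.02 in refed WT, 51.9, 57.0 and 60.9 in fasted K556R and 83.4, 99.0, 110 and 119 in refed K556R livers. In batch 1 the K556R values of Rpl30 overlapped (107, 110, 114 and 114 fasted, 103, 111, 114 and 140 refed). The interaction was 0.44 (SE 0.175, unadjusted p = 0.0174, adjusted p = 1), 0.12 in batch 1 and 0.82 in batch 2. With the counts of the pseudogene-named rows of Rpl30 added it was 0.312. Those rows held 0.261% as many counts as the Rpl30 row in batch 1 and 12.5% in batch 2. The other 3 of the 4 smallest p belonged to Rps27rt, Rpl22l1 and Rpl12, at -1.33 (SE 0.592), 0.34 (SE 0.177) and 0.19 (SE 0.105).

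No ribosomal protein gene was called between the Prox1 genotypes. In fasted livers 0 of 83 were called, where 0.103% of all genes were, and 7 had an unadjusted p below 0.05. In refed livers 0 were called among these genes and 0% among all, with 1 unadjusted p below 0.05. Over both feeding states 0 were called, where 1.24% of all genes were, with 7 unadjusted p below 0.05. The shares of all genes below that unadjusted cut are not given here, so these counts have no baseline. DESeq2 also called 0 in all 3 comparisons. The median K556R minus WT difference was -0.064 fasted, -0.026 refed and -0.038 over both, and in the last it was 0.005 in batch 1 and -0.077 in batch 2. For the 77 subunit genes the differences over both states lay between -0.176 and 0.049. In the same comparison all 16 interferon response genes of a list were called higher in K556R (median 0.836), and the 18 macrophage markers had a median of 0.15 with 0 called; their part was not tested.

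Among the genes with the smallest p over both states were Rplp2, Rps3 and Rps15, each with a lower value in K556R and none of them called. Rplp2, a stalk protein, differed by -0.15 (SE 0.060, adjusted p = 0.205), Rps3, at the mRNA entry, by -0.11 (SE 0.043, adjusted p = 0.228) and Rps15 by -0.18 (SE 0.072, adjusted p = 0.235). In fasted livers alone the smallest p belonged to Rps27rt (1.22, SE 0.415, adjusted p = 0.303), followed by Rplp2, Rps15 and Rpl8. In refed livers it belonged to Rpl30 (0.27, SE 0.126, adjusted p = 0.568), and Rps3 and Rpl22l1 were among those that came next. With the counts of its pseudogene-named rows added, Rpl30 differed by 0.179 in refed livers. Rpsa, Rps6, Rplp0, Rpl5, Rpl11, Rpl22, Rpl39, Rpl3, Rps27 and Rps27l differed over both states by -0.083 to 0.075, with adjusted p of 0.480 to 0.925.

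The subunit genes stood high or low together from library to library within a group and batch. In refed K556R batch 1 replicate 4 all 77 lay above their own mean in that group and batch, by 0.27 on average on the log2 scale, and in replicate 3 of the same group and batch 1 of 77 did. The counts for the other 2 libraries of that group were 3 and 35. In 9 of the 29 libraries at most 20 of the 77 lay above their mean and in 9 at least 57 did. Over all genes tested 48.4% to 53.5% lay above in each library. With so few libraries per mean, 1 high library makes the others of its group read low, so these counts are not independent. The share over all genes is no baseline for a set that varies together, and no other such set was counted here. The largest negative mean deviation was -0.16, in fasted WT batch 1 replicate 2, where 5 of 77 lay above. Refed K556R batch 1 replicate 4 is the library with the low stellate, endothelial and adipocyte marker sums described above. Median adipocyte marker sums were lower in refed than in fasted libraries of both genotypes. In batch 1 they were 567 CPM fasted and 276 refed in WT, and 443.5 and 169.5 in K556R. The part of these marker differences in the ribosomal protein level of that library was not tested. In batch 2, replicates 2 and 4 of refed K556R had 69 and 73 of 77 above, and replicates 1 and 3 had 5 and 2.

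**Figure D3:**
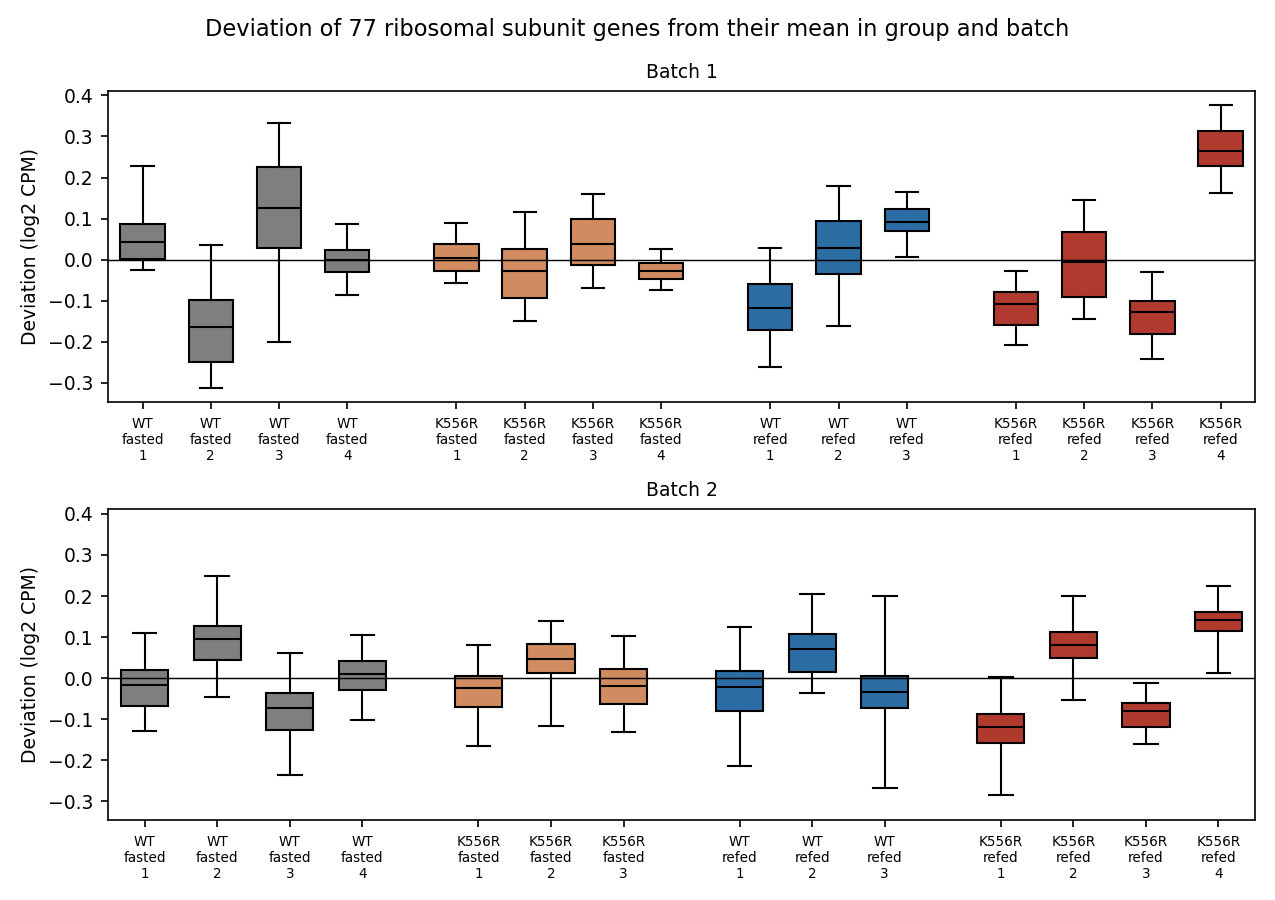
Deviation of the 77 subunit genes from their own mean in group and batch (y axis, log2 CPM) for each library; boxes span the quartiles with the median as a line, and whiskers the 5th to 95th percentiles. In refed K556R batch 1 replicate 4 the whole distribution lies above 0 (77 of 77 genes), and in replicate 3 nearly all of it lies below (1 of 77 above).

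The largest differences among these genes were between the batches. In batch 2, 14 of 83 were called higher and 23 lower than in batch 1, where 11.5% and 10.6% of all genes were. The largest negative differences were those of Rpl17 (-2.88, SE 0.070, adjusted p = 3.04e-24), Rpl7a (-2.57, SE 0.053, adjusted p = 4.79e-26), Rpl21 (-2.34, SE 0.080, adjusted p = 1.37e-20), Rps12 (-1.17, SE 0.079, adjusted p = 2.74e-13) and Rpl29 (-0.91, SE 0.061, adjusted p = 3.1e-13). Next came Rps27a (-0.75), Rps27 (-0.62), Rpl30 (-0.57), Rpl23 (-0.53) and Rpl9 (-0.38). Rpl17 ran from 181 to 252 CPM in batch 1 and from 19.8 to 36.6 in batch 2, and Rpl7a from 228 to 317 and from 35.4 to 57.4. The ranges of the batches lay far apart for both genes. Rps27rt differed the other way, by 4.72 (SE 0.317, adjusted p = 2.94e-13). The other called higher genes differed by at most 0.34, the value of Rps6, followed by Rps28 (0.28), Rpl27a (0.25), Rps29 (0.24), Rpl11 (0.23), Rps23 (0.20), Rps18 (0.20), Rpl18 (0.19) and Rps19 (0.18).

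The 5 genes with the largest negative differences (Rpl17, Rpl7a, Rpl21, Rps12 and Rpl29) share a 100-base stretch with 16 to 40 other genes. Of those that came next, Rps27a, Rps27 and Rpl23 share one with 4, 2 and 1 other genes, and over all 83 genes, which were measured in the same libraries, Spearman's rho between the number of such genes and the batch difference was -0.283. Of the 7 members that share a 100-base stretch with 15 or more other genes (among them Rpl17, Rpl21, Rpl29, Rpl7a, Rps12 and Rps2), 6 had negative differences in batch 2, with a median difference of -1.17. The 29 members that share one with 5 to 14 genes had a median of -0.042, the 40 with 1 to 4 genes 0.061 and the 7 with none 0.015. Rows named as pseudogenes of these genes, which the rule leaves out, held 0.403% to 0.589% as many counts as the members in the libraries of batch 1 and 4.46% to 4.96% in those of batch 2. For Rpl17, 11 such rows held 1194 counts in batch 1 and 35526 in batch 2, beside 68568 and 7007 in the Rpl17 row. Among its pseudogenes, 2 match its coding sequence at 99.6% (Rpl17-ps3) and 99.3% (Rpl17-ps10) of bases. For Rpl7a and Rpl21 the closest copies examined matched at 98.1% (Rpl7a-ps5) and 99.4% (Rpl21-ps15), and Rps12-ps3 is identical to the Rps12 coding sequence (399 of 399 bases).

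Adding the counts of pseudogene-named rows to the gene they are named after, an alternative chosen after the data were seen, took the batch difference of Rpl17 from -2.88 to -0.31, of Rpl14 from -0.29 to 0.04, of Rps12 from -1.17 to -0.68, of Rpl21 from -2.34 to -1.42 and of Rpl7a from -2.57 to -2.07. Rpl29 stayed at -0.90, and its 3 named rows held few counts. Rps10 went the other way, from 0.06 to 3.76, since 4 rows named as its pseudogenes held 301 counts in batch 1 and 9866 in batch 2. The counts of the batches thus divide between genes and copies differently. What made the batches differ in this, in the processing or before it, was not tested. The submitters' processing notes name both STAR and TopHat as aligners without saying which libraries each was used on. Except in the fits of each batch alone and the one without a batch term, batch is a term in the fits above, so a constant shift of this kind leaves the feeding and genotype contrasts, but a share that varies between libraries of 1 batch does not.

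**Figure D4:**
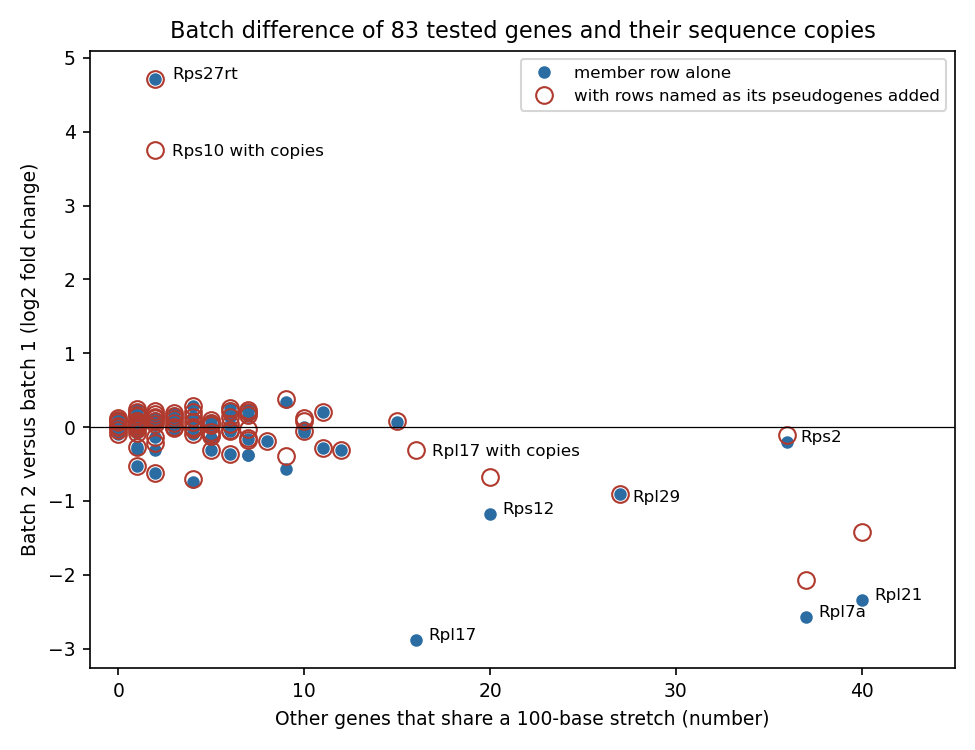
Batch 2 versus batch 1 log2 fold change of each of the 83 tested genes (y axis) against the number of other genes that share a 100-base stretch with it (x axis); filled points are the gene's own row and open circles the row with its pseudogene-named rows added. The low points (Rpl17 -2.88, Rpl7a -2.57, Rpl21 -2.34) have 16 to 40 such genes, and Rpl17 with its copies stands at -0.31.

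Rps27 and Rps27rt show such a varying share. In batch 1 Rps27 had 94.4 to 145 CPM and Rps27rt 0.845 to 2.50, and Rps27rt made up 0.784% to 2.11% of the pair. In batch 2 Rps27 had 30.7 to 116 CPM and Rps27rt had 8.49 to 88.1, or 8.98% to 72.5% of the pair. The sum of both was alike in the batches, with 114 ± 11.3 CPM (SD, n = 15) in batch 1 and 113 ± 11.9 (n = 14) in batch 2. The share was highest in fasted K556R batch 2 replicates 2 and 3 (71.0% and 72.5%) and in refed K556R batch 2 replicate 3 (72.0%), and was 17.5% in fasted K556R replicate 1 and 12.4% to 17.5% in the other 3 refed K556R libraries. It was 8.98% to 37.9% in fasted WT and 21.2% to 48.0% in refed WT libraries of batch 2. Within 1 group of 1 batch most counts of the pair thus lay on one row in some libraries and on the other row in others, and the Rps27rt differences between groups given above are differences in this share. Rps27l, which differs in sequence, had 131 to 182 CPM in batch 1 and 136 to 172 in batch 2.

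**Figure D5:**
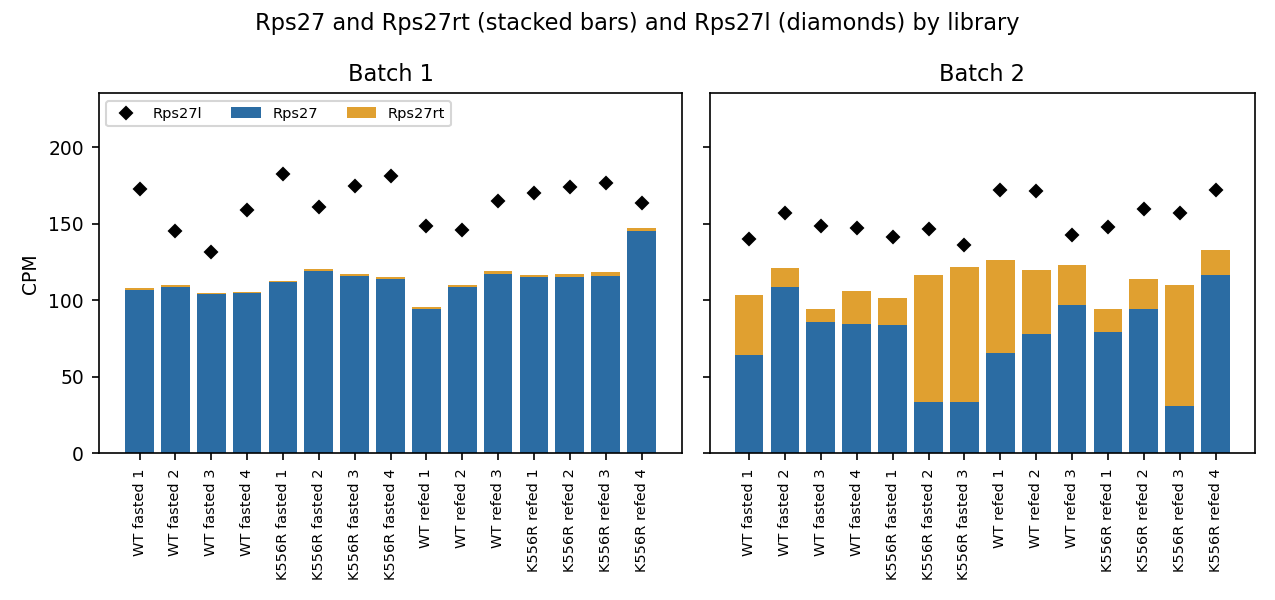
CPM of Rps27 (blue) and Rps27rt (orange) as stacked bars and of Rps27l as diamonds in each of the 29 libraries, by batch. The orange part is 0.784% to 2.11% of the bar in batch 1 and 8.98% to 72.5% in batch 2, while bar heights are alike in the batches (means 114 and 113 CPM).

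The other genes of ribosome production and its control were read from lists. Of 54 genes of ribosome production, 24 were higher and 2 lower after refeeding in the mean of both genotypes (median 0.155), where 12.9% of all genes were higher and 12.8% lower. This list holds RNA polymerase I genes and Myc as well as assembly factors. The largest changes were those of Bysl (0.61, SE 0.090), Utp20 (0.56, SE 0.062), Mrto4 (0.48, SE 0.060) and Nop56 (0.42, SE 0.069), which act in processing of pre-ribosomal particles. Of 28 genes of mTOR signalling and TOP mRNA control, 5 were higher and 10 lower (median -0.084), beside the same 12.9% and 12.8% of all genes, so that the count of higher genes is close to the background. The largest changes were those of Ddit4 (-1.25, SE 0.190) and Sesn2 (-0.70, SE 0.089), which restrain mTORC1, Eif4ebp3 (-0.99, SE 0.209), a repressor of cap-dependent translation, and Flcn (-0.43, SE 0.072). Larp1 was 0.12 higher (SE 0.043, adjusted p = 0.0341). Of 32 translation factors, 9 were higher and 2 lower (12.9% and 12.8% of all genes), with Eif4b (-0.39, SE 0.058), Eif4e (0.30, SE 0.051), Eif4a1 (0.22, SE 0.046) and Eif2s2 (0.22, SE 0.051) changing most.

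Fau and Rack1, subunit genes outside the naming rule, differed by 0.10 and 0.09 with refeeding, and neither was called. The mitochondrial ribosome is a separate particle with its own proteins, and of 77 tested genes for these 39 were higher and 0 lower after refeeding, where 12.9% and 12.8% of all genes were. Their median was 0.131 (0.089 in batch 1 and 0.181 in batch 2). The largest changes were those of Mrps22 (0.40), Mrpl19 (0.34), Mrpl47 (0.33) and Mrps27 (0.31). Their median of 0.131 stands beside 0.098 for the cytosolic ribosomal protein genes; the difference between the lists was not tested. In the genotype comparison over both states 1 mitochondrial gene was lower in K556R, Mrps18a (-0.20, SE 0.051, adjusted p = 0.0499), beside 0 cytosolic ones, and of the mTOR list Eif4ebp1 was lower (-0.25, SE 0.060, adjusted p = 0.0284).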

How the data were processed

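The table the authors deposited holds raw read counts per gene for 29 liver libraries of poly-A RNA. Per the submitters' processing notes, STAR, TopHat, HTSeq, DESeq2, edgeR and STAR-Fusion were used with mm10; per the labels, libraries could be directional or not; the strand setting, annotation release and handling of reads with several matches are unknown here (not given in the sources used). Of 54532 identifiers 54495 matched GENCODE M21 (GRCm38), and the 37 others held 0.0009% of counts. Genes were kept by filterByExpr (minimum count 10, total 15), which left 15603 genes with 99.92% of counts. The model was edgeR's quasi-likelihood test (version 4.0.16, R 4.3.3) with TMM scaling, 1 coefficient per group and a batch term (common biological coefficient of variation 0.191). SE values are those implied by the F statistic; CPM use TMM-scaled totals, except sums over marker lists, which use raw totals. Log2 CPM adds a prior count of 2. Alternatives were DESeq2 (1.42.0), RLE factors, TMM without these genes, no filter, no batch term, each batch alone, a replicate block and each library left out; pseudogene rows added, a batch-by-feeding term and shares with each library left out came after the data were seen. The procedure was tested on simulated data.

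Genes named are Rpsa, Rps6, Rplp0, Rpl5, Rpl11, Rps27, Rps27l, Rpl22, Rpl22l1, Rpl39, Rpl39l, Rpl3 and Rpl3l, up to 10 called members per direction and contrast by size, the 4 smallest p where fewer than 4 were called, and up to 4 called genes per list; some genes that this rule selects are not reported here. Rpl38, Rpl13a, Rpl24, Rps10, Rpl41 and the genes with copies were named after their values were seen. The members and lists were chosen with earlier results of these data known. Shared stretches of 50 and 100 bases were counted between GENCODE M21 transcripts. Counts do not identify PCR copies, so limits from counts cover counting error only.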

Additional observations from a re-analysis of the deposited data

Results flagged for a closer look

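For the named genes and the summed levels, each set of 4 libraries of 1 group and batch was searched for a library far from the other 3. Of 145 sets, 9 had one, which is close to the 1 in 20 or so that chance gives. The sets share libraries in which these genes vary together, so they are not independent. In refed K556R batch 1, replicate 4 was the high library for 6 genes: Rpsa (418 CPM, others 290 to 303), Rps6 (248 CPM, others 182 to 188), Rpl5 (250.3 CPM, others 172 to 179), Rps27 (145 CPM, others 115 to 116), Rpl21 (225 CPM, others 165 to 172) and Rpl7a (317 CPM, others 245 to 254). It is the library in which all 77 subunit genes lay above their group mean, and it had the lowest adipocyte, stellate and endothelial marker sums of its group; their part was not tested. Rps27rt stood apart in refed K556R batch 2 replicate 3 (79.1 CPM, others 15.5 to 19.9). Rpl8 was high in fasted K556R batch 1 replicate 3 (209 CPM, others 203 to 204) and Rpl21 in fasted K556R batch 1 replicate 2 (183 CPM, others 165 to 168); in both the other 3 libraries were close together.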

How the results depend on the processing

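The number of ribosomal protein genes called after refeeding (11 in the mean of both genotypes) was 4 without the low-count filter, 5 without a batch term, 3 in batch 1 alone and 30 in batch 2 alone; the cause was not tested. With the replicate block, in which repeat numbers were paired within a batch, it was 16, the same number as with DESeq2 (in WT it was 3 with each, in K556R 3 with the block and 6 with DESeq2, and 0 in each genotype comparison). Over 40 same-numbered pairs the correlation of deviations ran from -0.387 to 0.36 (median -0.029), so no pairing by number was seen. With few libraries per group and batch, such correlations cannot exclude a pairing. In WT (2 called) it was 1 without a batch term, 1 in batch 1 alone and 1 with pseudogene-named rows added. In K556R (4 called) it was 2 without a batch term, 1 in batch 1 alone and 10 in batch 2 alone. Leaving out each library gave 6 to 22 calls for the mean (median log2 fold change 0.074 to 0.124), 2 to 4 in WT (0.053 to 0.120) and 3 to 8 in K556R (0.080 to 0.148). It gave 0 calls in each genotype comparison (medians -0.091 to -0.034 fasted, -0.066 to 0.001 refed and -0.056 to -0.019 over both) and in the interaction (-0.004 to 0.063), and 33 to 42 between batches (-0.013 to 0.036). The refed minus fasted share of counts was -0.0228 to 0.0334 percentage points in batch 1 and 0.132 to 0.180 in batch 2 when each library was left out, an alternative chosen after the data were seen; in batch 2 it was 0.214 percentage points with the 10 most abundant genes left out of the total, against 0.154. The 4 to 30 counts per library of Rpl24 and similar counts of Rps10 and Rpl36al limit what can be seen there.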
